A study of Nothobranchius furzeri with 15 samples.

Results

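Gene expression in liver was compared with that in skin of the annual killifish Nothobranchius furzeri, a small fish that lives in seasonal ponds and is used as a short-lived laboratory vertebrate. The comparison takes in the 5 liver and the 5 skin samples of the 15 in the series, and the other 5 are brain. All fish were of the inbred strain GRZ and 12 weeks old, and the labels name no treatment, genotype or sex. Reads were counted for each entry of a catalogue of killifish transcripts, and each entry is called a gene here. Of 18311 genes, 15325 had enough counts in these 10 samples to be tested, and 339 had none at all.

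Liver is built mainly of hepatocytes, which make most proteins of the blood plasma, store and release glucose and fat, and break down amino acids and toxins. In egg-laying female fish, hepatocytes also make the yolk precursor proteins. Fish skin is an epithelium of keratin-rich cells over a collagen-rich dermis that carries scales and pigment cells, and body wall muscle lies directly beneath it. The catalogue pairs its genes with zebrafish identifiers but not with names, so marker genes of these cell types were not looked up and the tissue labels were not checked against them. Which cell types the dissected pieces held, muscle included, was not measured. In such whole-tissue samples, more cells of a type and more RNA per cell cannot be told apart.

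Samples are called by the number in their titles, which gives liver 10, 11, 13, 14 and 15 and skin 5, 6, 7, 13 and 14. The numbers 13 and 14 occur in both tissues. No label states whether they mark the same fish. Total counts averaged 23.8 M ± 2.1 in liver and 20.8 M ± 1.88 in skin (SD, n = 5 each). Levels are in CPM (counts scaled to a fixed library total) scaled by TMM, a method that corrects for a few very abundant genes taking up a library. The mean TMM factor was 0.768 in liver and 1.32 in skin. With these totals and factors, 3 counts in a library stood for 0.139 to 0.21 CPM in liver and for 0.0947 to 0.125 CPM in skin. By total counts alone, they stood for 0.115 to 0.146 CPM in liver and 0.135 to 0.17 CPM in skin, so that the higher floor of liver came with the TMM factors and not with the depth. Tissue accounted for most of the variation, with 84.3% of the variance on a first principal component that separated the tissues. The second component held 4.31% and set skin 7 and liver 14 apart from the other samples of their tissues, both on the same side.

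Liver and skin differed in most of the genes tested. By edgeR's quasi-likelihood test, 9333 of 15325 genes (60.9%) had an adjusted p under 0.05, of which 4450 were higher in liver (29% of genes tested) and 4883 higher in skin (31.9%). With TMM, the differences in favour of skin were larger. The median fold was 2.36 for genes called higher in liver and 4.29 for genes called higher in skin. Differences under 2-fold made up 27.8% of all calls. Over all genes tested, the log2 fold change of liver over skin had a median of 0.03.

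The balance between the directions rested on the scaling. With TMM, 47.7% of the called genes were higher in liver. Without scaling beyond the total count the share was 17%, around a median log2 fold change of -0.745 over all genes. On deposited RPKM values (reads per kilobase of gene, scaled to the reads counted), tested with limma at a pseudocount of 0.1, it was 16.6% around a median of -0.729. The larger share of skin calls that reached 4-fold also rested on the scaling. With TMM, 1227 of 4450 genes called higher in liver and 2552 of 4883 called higher in skin differed at least 4-fold. Without scaling these were 809 of 1681 for liver and 3674 of 8192 for skin. Of all 4-fold differences, liver held 32.5% with TMM and 18% without scaling, so skin held more of them either way. Median folds without scaling are not given.

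In 7239 of the called genes, all 5 samples of the higher tissue lay above all 5 of the lower. These were 3087 genes higher in liver (20.1% of genes tested) and 4152 higher in skin (27.1%). The remaining 2094 called genes had overlapping tissues. Leaving out liver 15 ended the overlap in 642 of them, leaving out liver 14 in 426, skin 7 in 423 and liver 10 in 303. Leaving out any other single sample ended it in 57 to 271 genes.

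Skin had more of the large differences up to 64-fold, and this order did not hold beyond. Differences of at least 2-fold were called for 2759 genes higher in liver (18% of genes tested) and 3980 higher in skin (26%). At least 4-fold differences were called for 1227 genes in favour of liver (8.01% of genes tested) and for 2552 in favour of skin (16.7%). At 16-fold the counts were 502 genes for liver (3.28%) and 1054 for skin (6.88%), and at 64-fold 254 for liver (1.66%) and 467 for skin (3.05%). At 256-fold, a class chosen after seeing the data, there were 152 genes for liver (0.992%) and 129 for skin (0.842%). That last order depended on single samples and on scaling: without liver 10 the counts were 152 for liver and 162 for skin, without liver 13 they were 151 and 170 in the same order, and without scaling 121 for liver and 224 for skin. Leaving out skin 7 widened the lead of liver, to 201 genes for liver and 135 for skin. On RPKM values, which also lack TMM, liver kept the lead, with 106 genes for liver and 86 for skin at a pseudocount of 0.1. At a pseudocount of 1 these were 57 and 32 in the same order.

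**Figure D1:**
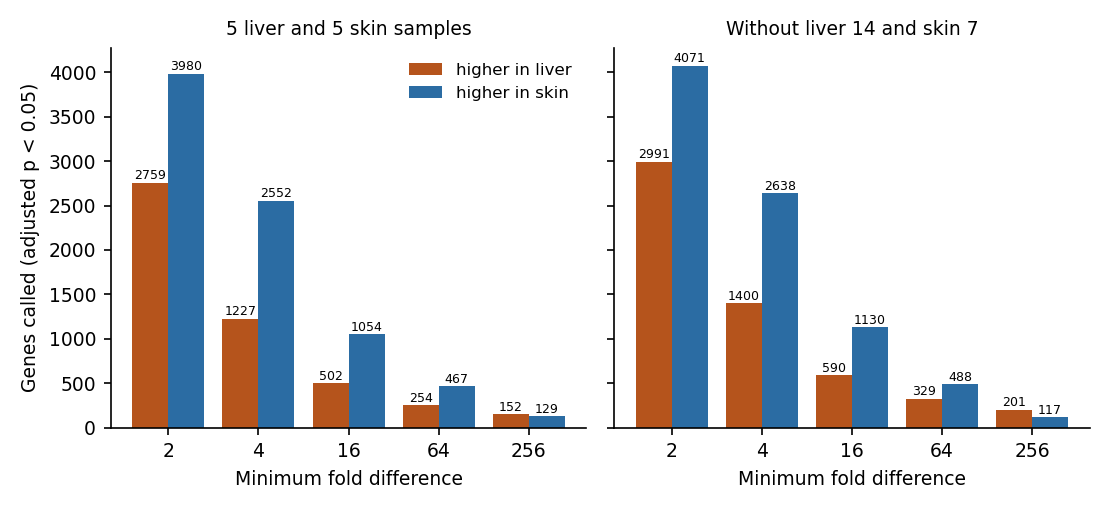
Number of genes with an adjusted p under 0.05 and at least the fold difference on the horizontal axis, higher in liver (orange) and higher in skin (blue), over the 10 samples (left) and without liver 14 and skin 7 (right). Skin has the higher bars up to 64-fold, with 254 genes for liver and 467 for skin there over the 10 samples. Liver has the higher bars at 256-fold. That order turns without liver 10, without liver 13 or without scaling of the counts, but not on RPKM values.

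The direction of the large differences changed with the level of the gene. Among genes that differed at least 4-fold and reached 1000 CPM in the higher tissue, 108 were higher in liver and 53 in skin. At that level 261 genes were tested. Of the 4-fold differences there, 67.1% favoured liver, against 32.5% over all levels. Between 100 and 1000 CPM the counts were 434 for liver and 332 for skin, of 1617 genes tested. Between 10 and 100 CPM they were 478 for liver and 1155 for skin, of 7964 tested. Between 1 and 10 CPM they were 201 for liver and 915 for skin, of 4848 tested, a liver share of 18%. With TMM, abundant 4-fold genes were thus mostly higher in liver, and those of low and middle level mostly higher in skin. Without scaling, the liver share was 54.8% at 1000 CPM or more and 8.5% between 1 and 10 CPM, and between 100 and 1000 CPM the order turned, with 303 genes for liver and 514 for skin. Without skin 7 and liver 14 it was 66.9% and 22.2% in these classes. The test also called a larger part of abundant genes, 89.7% at 1000 CPM or more against 54.7% between 1 and 10 CPM.

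**Figure D2:**
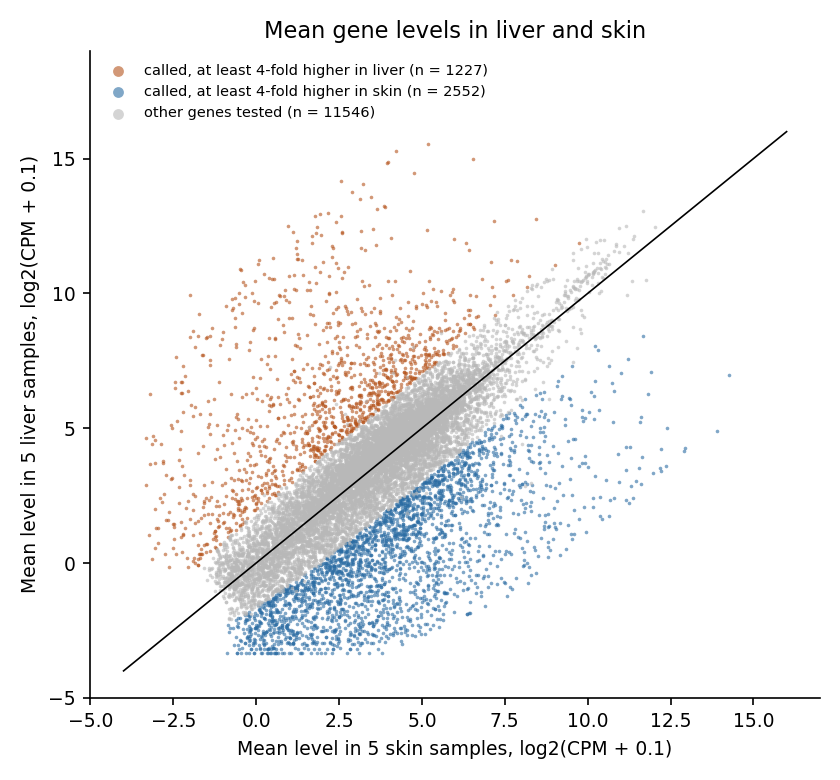
Mean level of each of the 15325 genes tested in 5 liver samples (vertical) and 5 skin samples (horizontal), as log2 of TMM-scaled CPM plus 0.1, with the line of equal levels. The 1227 genes called at least 4-fold higher in liver (orange) reach the highest levels, while the 2552 called at least 4-fold higher in skin (blue) crowd at low and middle levels.

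The genes at least 4-fold higher in liver had a median level of 75.5 CPM in liver and 4.25 CPM in skin. In liver, 54.4% ± 3.76 of all counts fell on them (SD, n = 5), with 49.6% in liver 15 at the low end and 59.4% in liver 10 at the high end. The genes at least 4-fold higher in skin had median levels of 0.984 CPM in liver and 16.1 CPM in skin. Their share of counts was 0.968% ± 0.137 for liver and 39.4% ± 3.45 for skin (SD, n = 5 each). Because these genes were chosen on the same samples, the shares are a description. Skin 7 had the largest share of counts in the genes higher in liver among skin samples, 2.89%, where the other skin samples had 1.78% to 2.33%.

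A gene that was well covered in liver was nearly always covered in skin, but less so the other way round. At least 10 counts in each of the 5 livers were found for 12939 genes, and 12509 of these (96.7%) had at least 10 counts in each skin sample too. In each of the 5 skin samples 14578 genes had at least 10 counts, and the same 12509 made up 85.8% of them. At least 10 counts in every liver with at most 3 counts in every skin sample were found for 26 genes. The opposite pattern, at most 3 counts in every liver and at least 10 in every skin sample, was found for 282. With no count at all in the lower tissue, the numbers were 2 genes for liver and 32 for skin. These are raw counts, and the level that 3 counts stand for was higher in liver with TMM scaling and mostly lower without it, as given above. The floors are the levels of a fixed 3 counts and cover no variation between samples.

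The most abundant genes were partly common to both tissues. By mean RPKM, which corrects for gene length, 51 of the 100 most abundant genes of liver were among the 100 most abundant of skin. Another 33 of the 100 liver genes ranked beyond place 5000 in skin, while 17 of the 100 skin genes ranked beyond place 5000 in liver. A place in both lists did not mean equal levels with TMM. The lists rank RPKM, which lacks TMM, while the calls use it. Over all genes tested, the median log2 fold change was 0.03 with TMM and -0.745 without scaling. Calls for these lists without TMM are not given. With TMM, 88 of the 100 liver genes were called higher in liver, against 29% of all genes tested. Of the 100 skin genes, 37 were called higher in skin, against 31.9% of all genes tested. Both lists were chosen by level on the same samples, so these shares are a description. Abundant genes were also called more often: 89.7% of genes at 1000 CPM or more, in either direction, against 60.9% of all genes tested. Of the 1000 most abundant genes, 500 were shared.

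By the rule for naming, 2 genes are given in each direction. These have the largest fitted fold changes among genes with at least 1000 CPM in the higher tissue, no overlap between tissues, and a call both over the 10 samples and without skin 7 and liver 14. Of the 15325 genes tested, 261 reached 1000 CPM in the higher tissue. In liver 134 genes met all the conditions and in skin 56. Their fold changes were used to choose them and are given as a description. No function is given for them, since no source used here annotates their identifiers.

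Nofu_gene_3_0017689 carries the zebrafish identifier ENSDARG00000043360, which 1 other entry shares, and is about 1.07 kb long. It was measured at 42962 CPM in liver 10, 17716 in liver 11, 11493 in liver 13, 13325 in liver 14 and 6429 in liver 15. In skin it stood at 8.65 CPM in skin 5, 0.819 in skin 6, 5.8 in skin 7, 4.09 in skin 13 and 9.81 in skin 14. The tissues were far apart, although liver 10 was 6.68 times as high as liver 15. The fitted difference, liver over skin, was 11.62 on the log2 scale with an SE of 0.96 (adjusted p = 9.14e-07, edgeR), and 11.04 without liver 10. By RPKM it was the gene of rank 3 in liver and of rank 6419 in skin.

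Nofu_gene_3_0008883 (ENSDARG00000024928, about 2 kb) varied much less between livers. It had 6800 CPM in liver 10, 5683 in liver 11, 5731 in liver 13, 4035 in liver 14 and 6619 in liver 15. Its levels were 3.53 CPM in skin 5, 0.45 in skin 6, 1.31 in skin 7, 1.64 in skin 13 and 2.37 in skin 14. The fitted log2 difference came to 11.60 with an SE of 0.64 (adjusted p = 5.44e-08, edgeR). Skin 6 had the lowest level of both liver genes, and skin 5 and skin 14 the highest.

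Nofu_gene_3_0011230 (ENSDARG00000093467) has a length of only about 0.319 kb. It had 6.42 CPM in liver 10, 1.49 in liver 11, 8.8 in liver 13, 1.02 in liver 14 and 5 in liver 15. In skin its levels were 2090 CPM in skin 5, 3821 in skin 6, 1873 in skin 7, 3328 in skin 13 and 1053 in skin 14. Its fitted difference, liver over skin, was -9.07 on the log2 scale with an SE of 0.78 (adjusted p = 1.23e-06, edgeR). By RPKM it had rank 3 in skin, with a mean of 10.9 RPKM in liver and 9646 RPKM in skin.

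Nofu_gene_3_0013972 (ENSDARG00000022817, about 0.907 kb) was the most abundant gene of skin by RPKM. It stood at 56.9 CPM in liver 10, 11.3 in liver 11, 53.8 in liver 13, 8.25 in liver 14 and 17.6 in liver 15. In skin it reached 13246 CPM in skin 5, 23715 in skin 6, 14193 in skin 7, 17345 in skin 13 and 8498 in skin 14. The fitted log2 difference came to -9.03 with an SE of 0.76 (adjusted p = 1.09e-06, edgeR). On average it held 0.0022% of liver counts and 1.97% of skin counts. Both skin genes had their highest levels in skin 6 and skin 13 and their lowest in skin 14, and both were higher in liver 10, 13 and 15 than in liver 11 and 14.

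**Figure D3:**
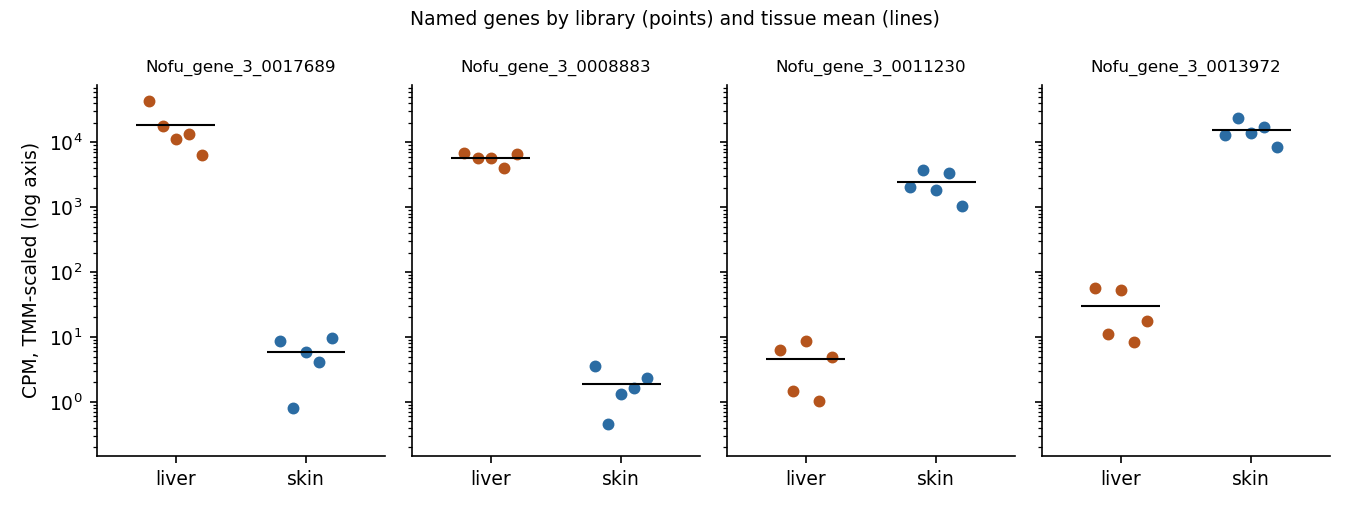
Level of the 4 named genes in each of 5 liver samples (left in each panel) and 5 skin samples (right), as TMM-scaled CPM on a log axis, with lines at the tissue means. The tissues do not overlap in any panel, which was a condition of the choice. The largest spread within a higher tissue is that of Nofu_gene_3_0017689 in liver, from 6429 to 42962 CPM.

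In brain, which took no part in the choice, all 4 named genes were low. With CPM scaled over all 15 libraries, Nofu_gene_3_0017689 averaged 23764 CPM in liver, 7.61 in skin and 9.12 ± 2.87 in brain, and Nofu_gene_3_0008883 averaged 7403 in liver, 2.42 in skin and 4.03 ± 2.19 in brain (SD, n = 5 each). The skin gene Nofu_gene_3_0011230 averaged 5.85 CPM in liver, 3179 in skin and 1.51 ± 1.16 in brain, and Nofu_gene_3_0013972 averaged 38.2 in liver, 20146 in skin and 14.4 ± 7.13 in brain.

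Brain also served as an outside point for the whole of both groups of genes. Of the 1227 genes at least 4-fold higher in liver, 997 (81.3%) had a brain level nearer to skin than to liver on the log2(CPM + 0.1) scale. Brain lay at or above liver in 106 of them (8.64%), and in 65 (5.3%) all 5 brain samples were above all 5 liver samples. Of the 2552 genes at least 4-fold higher in skin, 1458 (57.1%) had a brain level nearer to liver. Brain lay at or above skin in 655 of these (25.7%), and in 487 (19.1%) all 5 brain samples were above all 5 skin samples. No test was run on the difference between these shares, and the genes were chosen on the liver and skin samples. Without scaling the share nearer to the lower tissue was 65.6% for the liver genes and 44.6% for the skin genes. The share at or above the higher tissue was then 18.9% for the liver genes and 32.2% for the skin genes. All 5 brain samples were then above all 5 of the higher tissue in 11.1% and 24.4%, in the same order.

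**Figure D4:**
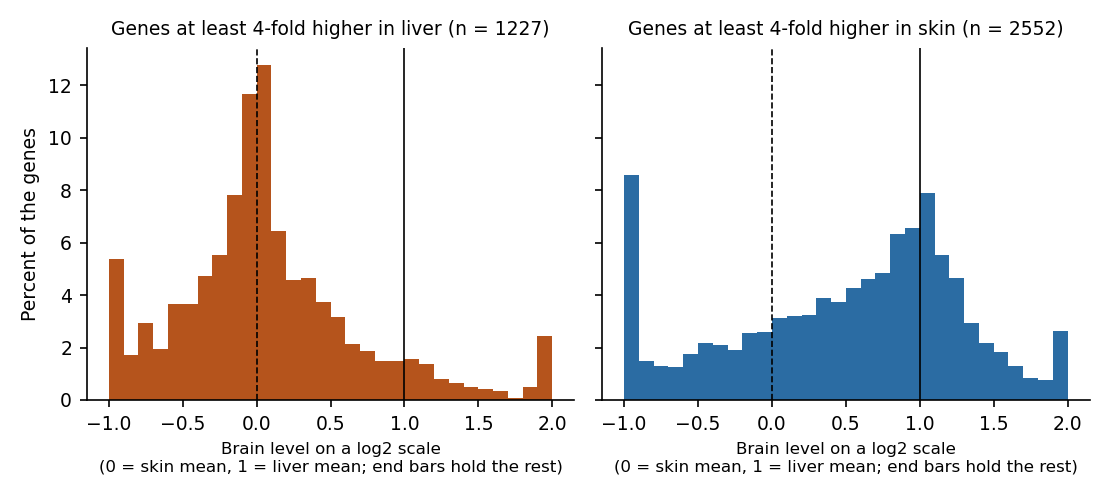
Position of the mean brain level between the mean skin level (0, dashed line) and the mean liver level (1, solid line) on the log2(CPM + 0.1) scale, as percent of the genes at least 4-fold higher in liver (left, 1227 genes) and at least 4-fold higher in skin (right, 2552 genes). The end bars also hold values beyond the axis. The liver genes peak at the skin level, while the skin genes peak at the liver level and spread to beyond the skin level.

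The flag for a best bidirectional hit marks catalogue genes whose zebrafish partner finds them back as its own best match. The share of counts that fell on such genes differed between the tissues. It was 86.6% in liver 10, 88.8% in liver 11, 87.6% in liver 13, 88.4% in liver 14 and 88.01% in liver 15. In skin it was 75.8% in skin 5, 73.6% in skin 6, 75.4% in skin 7, 73.4% in skin 13 and 77.1% in skin 14. The tissues did not overlap, with 87.9% ± 0.845 in liver and 75.1% ± 1.56 in skin (SD, n = 5 each; 2-sided exact permutation test, adjusted p = 0.00952 over 6 measures; the raw p of 0.00794 is the smallest this design can give). Without skin 7 and liver 14 the means were 87.8% for liver and 75% for skin (n = 4 each; exact permutation test, adjusted p = 0.0343). Without the 10 most abundant genes of each tissue the livers averaged 87.1% and the skin samples 81.4% (p = 0.00794 by the same exact test).

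Of genes without a best bidirectional hit 60.6% passed the test, against 61% of genes with one. At least 4-fold differences were called for 28.5% of genes without a hit and for 23.7% of genes with one. Best bidirectional hits made up 80% of the genes at least 4-fold higher in liver and 74.2% of those at least 4-fold higher in skin. Among the 4-fold liver genes that reached 1000 CPM there, 6 of 108 were no best bidirectional hit. Among the 4-fold skin genes that reached 1000 CPM there, 22 of 53 were none, and of all genes tested 20.8% were none. Of the 4 named genes, Nofu_gene_3_0017689 in liver and both skin genes are no best bidirectional hit either.

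Counts in skin fell on longer genes. The mean length of the gene on which a count fell was 2.93 kb ± 0.0246 in liver and 3.2 kb ± 0.1001 in skin (SD, n = 5 each; 2-sided exact permutation test, adjusted p = 0.00952). In the table that counts reads per gene model of the genome, it was 3.13 kb ± 0.049 for liver and 4.7 kb ± 0.229 for skin (exact permutation test, adjusted p = 0.0106 over 4 measures). The genes at least 4-fold higher in liver had a median length of 2.37 kb and those at least 4-fold higher in skin 2.64 kb, against 2.62 kb for all genes tested.

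Without TMM scaling, more genes passed low and middle levels in skin. The mean TMM factors were 0.768 in liver and 1.32 in skin, so these thresholds lay higher for liver on the TMM scale. Gene numbers with TMM scaling are not given. At 1 CPM or more, without TMM scaling, there were 12488 ± 230.3 genes in liver and 14378 ± 256.1 in skin (SD, n = 5 each; exact permutation test, adjusted p = 0.00952). At 100 CPM or more there were 1050 ± 123 for liver and 1438 ± 135 for skin (exact permutation test, adjusted p = 0.00952). In the genome table, the numbers at 100 CPM were 934 ± 105 for liver and 998 ± 92 for skin, a difference that did not pass the test (exact permutation test, adjusted p = 0.286). At 1000 CPM or more, 155 ± 12.8 genes for liver stood against 155 ± 6.02 for skin, with the same mean (exact permutation test, p = 1). The genome table gave 172 ± 8.53 for liver and 140 ± 4.09 for skin at that level (exact permutation test, adjusted p = 0.0106), so this comparison depended on the table.

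**Figure D5:**
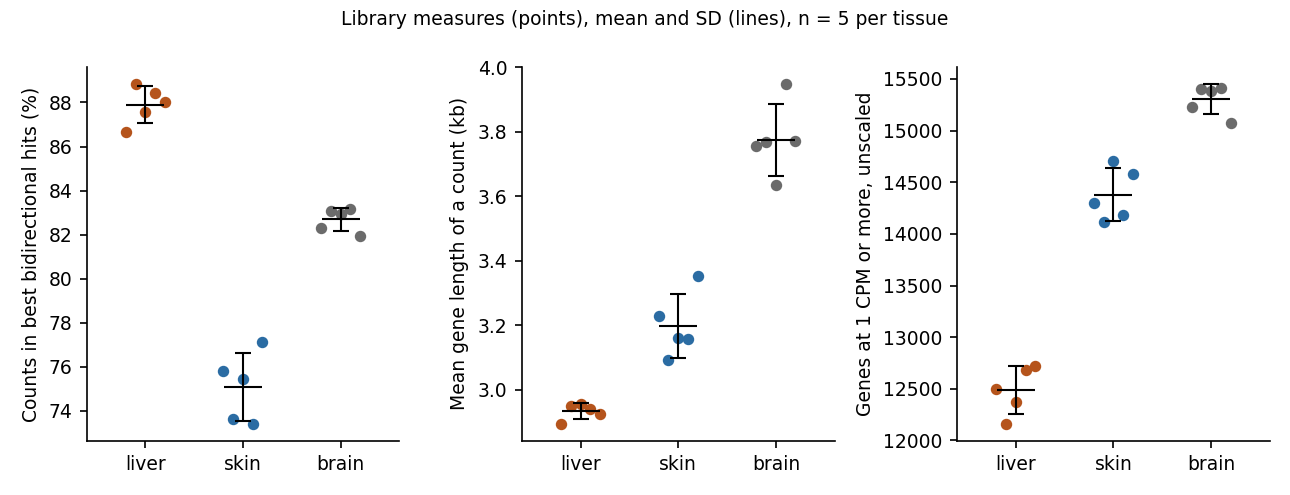
Share of counts on genes with a best bidirectional hit, mean length of the gene on which a count fell, and number of genes at 1 CPM or more, per library of liver, skin and brain, with mean and SD (n = 5 per tissue); the vertical axes do not start at 0. Liver and skin do not overlap in any panel, and brain lies between them in the first and above both in the others. The numbers of genes are without TMM scaling.

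Zebrafish identifiers shared by several genes group entries that may be close relatives. Among the genes tested, 1576 identifiers had at least 2 entries, 3401 entries in all. In 240 of these identifiers (15.2%) some entry was called higher in liver and another higher in skin, and in 35 both differences were at least 4-fold. In 419 (26.6%) every entry was called in the same direction. Over all genes tested, 29% were called higher in liver and 31.9% higher in skin. No matching shares for groups of unrelated genes are given. The values therefore do not tell whether entries of 1 identifier differ more or less than other genes. Of entries with a shared identifier 61.6% were called, against 60.7% of those with their own, and 27.3% against 23.9% were called with at least a 4-fold difference. Entries with a shared identifier held 22.1% ± 1.59 of the counts of liver and 27.3% ± 1.19 of those of skin (SD, n = 5 each; 2-sided exact permutation test, adjusted p = 0.00952). Reads of near-identical copies could be split between entries, so single pairs are uncertain.

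Samples varied more among livers than among skin samples. Of 6561 genes with at least 10 CPM in both tissues, the SD of log2(CPM + 0.1) was higher in liver for 67.9%, with medians of 0.339 in liver and 0.237 in skin (n = 5 each). Without liver 14 and skin 7 the medians were 0.338 in liver and 0.207 in skin. Medians without liver 15 are not given, so how far that sample carries the difference was not tested. Among the genes at least 4-fold higher in liver, 140 (11.4%) ranged at least 8-fold between livers. Among those at least 4-fold higher in skin, 44 (1.72%) ranged as widely between skin samples. The 140 genes were highest most often in liver 15, in 48 genes, and lowest there in 42, so liver 15 was at an end in both directions. Of the 140, 111 ranged at least 8-fold without liver 14 as well, and of the 44, 18 did so without skin 7.

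The numbers 13 and 14, which each have a liver and a skin sample, gave the same directions as the fit in nearly all genes. These samples are part of the fit, so the shares are a description. Of the 3779 genes called with at least a 4-fold difference, 3765 (99.6%) had the same direction between liver 13 and skin 13 and 3754 (99.3%) between liver 14 and skin 14. The difference was at least 4-fold in 90.6% of them for number 13 and in 85.6% for number 14.

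Without skin 7 and liver 14, 9203 of 15296 genes (60.2%) were called, 4386 higher in liver (28.7%) and 4817 higher in skin (31.5%). Tissues did not overlap in called genes making up 24.6% of genes tested on the liver side and 29.6% on the skin side. The calls shared with the 10 samples numbered 8684, which is 93% of the calls over 10 samples and 94.4% of those over 8, and none of these changed direction. The log2 fold change moved by over 1 in 316 genes (2.07%). In 262 of these it moved towards liver and in 54 towards skin. Differences of at least 4-fold in favour of liver then numbered 1400 (9.15%) and in favour of skin 2638 (17.2%). The shares were 19.6% for liver and 26.6% for skin at 2-fold, 3.86% for liver and 7.39% for skin at 16-fold, 2.15% for liver and 3.19% for skin at 64-fold, and 1.31% for liver and 0.765% for skin at 256-fold. Among genes tested but not called over 10 samples, 336 were then called in favour of liver, 81 of them at 4-fold or more. In favour of skin 151 were then called, 14 of them at 4-fold or more. Leaving out skin 7 alone gave 1430 genes for liver and 2593 for skin at 4-fold, of 15403 tested. Leaving out liver 14 alone gave 1273 for liver and 2699 for skin, of 15523 tested.

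In the genome table, 11485 of 18260 gene models tested (62.9%) were called, 5360 higher in liver (29.4%) and 6125 higher in skin (33.5%). At least 4-fold differences numbered 1756 in favour of liver (9.62%) and 3571 in favour of skin (19.6%), and at least 256-fold differences 262 for liver (1.43%) and 223 for skin (1.22%). Liver thus held 33% of the 4-fold differences in the genome table and 32.5% in the catalogue. The tables count reads of the same libraries and are not independent.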

How the data were processed

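The authors deposited read counts per catalogue gene and per genome gene model, whole numbers whose totals vary by sample, used as raw counts. They also deposited RPKM values of both. Gene lengths computed from these reproduced 100% of RPKM values within a relative tolerance of 1e-06. Tools listed, per the submitters' processing notes, are featureCounts 1.4.3-p1, TopHat2 2.0.6, CASAVA 1.8.2 and Bowtie. For the genome build, annotation, strandedness and reads matching several genes, details were not given in the sources used here, so overlapping genes and near-identical copies are uncertain. The flag for a best bidirectional hit is described in the deposited information sheet. In the RPKM sheet, 60 columns of other samples were not used.

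The counts were fitted in R 4.3.3 with edgeR 4.0.16 (filterByExpr with a count minimum of 10, TMM, quasi-likelihood F-test, Benjamini-Hochberg threshold of 0.05) in 1 fit of the 10 samples. The SE is the size of the log2 fold change divided by the square root of F. For single values per library, 2-sided exact permutation tests were used, over 6 measures chosen after the data were seen. Alternatives used DESeq2 1.42.0 and limma 3.58.1. The series information calls the samples of a tissue biological replicates. Members, gene lists and tests were chosen with earlier results of these data known. The only table of gene names at hand was a RefSeq table of killifish (assembly NfurGRZ-RIMD1, 38438 genes), while the catalogue carries zebrafish identifiers. Of the identifiers, 0 were found in it, as the 2 sources use different kinds of identifier. The lists of marker and pathway genes could therefore not be described, and the naming rule ran without symbols, as it allows.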

Additional observations from a re-analysis of the deposited data

Results flagged for a closer look

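In 28 groups of 5 samples examined for a sample far from the rest (Dixon's ratio above 0.71), 2 held such a sample, where chance alone gives about 1.4. Liver 15 had 1269 genes at 100 CPM or more without scaling, and the next liver had 1008. Skin 14 had 145 genes at 1000 CPM or more without scaling, and the next skin sample had 156.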

How the results depend on the processing

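The count of genes called, 9333 over the 10 samples, stayed within 1.5 times of that value under every alternative but 1, the limit to a mean of at least 10 CPM (chosen after seeing the data), which tests fewer genes. There 9068 genes were tested and 5595 called, 2638 higher in liver and 2957 higher in skin. The share of calls higher in liver was 47.1%, against 47.7% without this limit. A 4-fold or greater excess in skin was called for 1403 genes, and 1919 for liver and 2543 for skin had no overlap. Without scaling, 1681 genes were called higher in liver and 8192 higher in skin, 809 with a 4-fold or greater excess in liver and 224 with a 256-fold or greater excess in skin, and 1249 for liver and 6621 for skin did not overlap. On RPKM with a pseudocount of 0.1, 1679 were higher in liver and 8445 in skin, 780 with a 4-fold or greater excess in liver, and 1251 for liver and 6634 for skin did not overlap. With a pseudocount of 1 these were 1662, 8418, 609, 1251 and 6636 in the same order, with 57 genes for liver and 32 for skin at 256-fold. The genome table gave 262 for liver and 223 for skin at 256-fold, and a difference of -64.2 (liver minus skin) in genes at 100 CPM and of 32 in genes at 1000 CPM.

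DESeq2 called 9688 genes, of which 9252 were among the 9333. It gave 289 genes no adjusted p. Without scaling 9873 genes were called, but only 6584 of these were among the 9333, and 20 of the shared calls changed direction. Leaving out each sample in turn gave 8710 to 10037 called genes, with 15402 to 15557 tested. The fit over all 15 samples called 10434 of 16611 genes tested. With the replicate number as a fixed block, in which numbers 13 and 14 alone inform the comparison, 7272 genes were called, and 6736 of these were among the 9333. The other numbers occur in a single sample each, so this fit has little from which to estimate the spread of a gene. Its calls lean on the spread shared across genes. With the replicate block as a random term (voom, consensus correlation 0.177) 9500 were called. That correlation also comes from numbers 13 and 14 alone. The deviations of liver 13 and skin 13 from their tissue means correlated at r = 0.107 across genes. Those of liver 14 and skin 14 correlated at 0.0871. Over all pairs of a liver and a skin sample, r ran from -0.288 (liver 14 and skin 13) to 0.304 (liver 14 and skin 7). Some pairs of unlike numbers lay above both same-number pairs, such as liver 10 and skin 13 at 0.17, and others lay below. The log2 fold changes of the 4 named genes kept direction and call under all alternatives run on the catalogue. The choice required large fold changes and calls with and without skin 7 and liver 14, so this is a description. The level below which a gene goes uncounted was higher in liver on the TMM scale, although liver libraries had the larger mean total.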
